A study of Mus musculus with 6 samples.

Results

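The genes described here are the mouse genes whose symbol is Zfp plus a number, a naming series given to zinc finger proteins. They were taken from the deposited kidney table by symbol. Of its 7373 rows, 72 carried such a symbol. Zfp36, Zfp36l1 and Zfp36l2, which encode RNA-binding proteins with another kind of finger, were left out, and no Zfp row was at 0 in the third control library, so 69 genes remained. RefSeq names 394 protein-coding genes by the same rule, and 70 of them are in the table by gene ID. Of these, 68 carry the Zfp symbol there too and 2 are listed as Znf512b and Zfml, which the choice by symbol leaves out. The remaining 1 of the 69, Zfp259, is named Zpr1 in RefSeq. The table holds only genes above a minimum level.

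The samples are kidneys of adult FVB/N males, 3 from transgenic and 3 from control mice, measured by RNA sequencing. The deposited values of both groups carry the label Pre_IRI, given here as it stands. The transgene encodes CryAB, one of the small heat shock proteins, with a missense mutation named R120G. Its α-myosin heavy chain promoter is specific to heart muscle cells, and the kidneys were taken before heart failure began. The control mice were matched for age and sex, and both groups share the FVB/N background. The sources used here do not state the genotype of the controls beyond that word, the age in weeks or the number of founder lines. RNA came from frozen pieces of whole kidneys, so a value is an average over all cell types in a piece. Fewer cells of a type and less RNA per cell cannot be told apart.

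A classical zinc finger, the C2H2 finger, is a short fold in which a pair of cysteines and a pair of histidines hold a zinc ion. Fingers in a row, joined by a conserved linker, can each read a few bases of DNA, and others bind RNA or protein. Many of these proteins also carry a KRAB domain, which binds the co-repressor TRIM28 (also called KAP1). TRIM28 brings in the histone methyltransferase SETDB1, heterochromatin proteins and the NuRD deacetylase complex, and this machinery is best known for silencing endogenous retroviruses and for keeping imprints.

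Predicted proteins of the 69 genes, translated from GENCODE transcripts of GRCm38, the assembly that mm10 names, ranged from 76 residues (Zfp706) to 1888 residues (Zfp106). A search for the C2H2 spacing found 476 fingers in 66 proteins, with 1 to 18 in each and a median of 7. Zfp715 had the most. A linker followed at least 1 finger in 42 proteins. Zfp503, Zfp259 and Zfp330 held no C2H2 finger, and Zfp330 held the only match to a CCCH spacing. A KRAB pattern was found in 16 proteins, whose median was 9 fingers against 6 in the rest. This count is a minimum, since the fixed pattern misses divergent boxes: Zfp445, an established KRAB protein, was not matched.

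Coding DNA of 1 finger follows for 9 of the genes, to let a reader see the shared spacing and the difference in base composition that recurs in the values. Capitals mark the codons of the cysteines and histidines that hold zinc, and the strand is that of the gene. The first 3 are among the genes whose kidneys did not overlap between groups. Zfp664 is read from chr5:124885808-124885885 (plus strand, exon 4 of 4), Zfp212 from chr6:47931364-47931441 (plus strand, exon 5 of 5) and Zfp467 from chr6:48438988-48439065 (minus strand, exon 5 of 5).
Zfp664: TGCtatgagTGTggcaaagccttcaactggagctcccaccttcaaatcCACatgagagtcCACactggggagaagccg
Zfp212: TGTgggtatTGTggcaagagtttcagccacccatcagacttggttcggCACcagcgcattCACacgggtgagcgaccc
Zfp467: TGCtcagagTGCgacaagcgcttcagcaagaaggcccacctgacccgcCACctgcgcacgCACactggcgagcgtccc
The next 3 come from the transcripts with the highest GC content among the 69, between 62.6% and 68.7%. Zfp771 is read from chr7:127253856-127253933 (plus strand, exon 3 of 3), Zfp579 from chr7:4994707-4994769 (minus strand, exon 1 of 1, a finger with no linker after it) and Zfp787 from chr7:6132972-6133049 (minus strand, exon 3 of 3).
Zfp771: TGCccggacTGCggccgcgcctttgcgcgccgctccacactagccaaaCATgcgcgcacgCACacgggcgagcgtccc
Zfp579: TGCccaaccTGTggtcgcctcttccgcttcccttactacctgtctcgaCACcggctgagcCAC
Zfp787: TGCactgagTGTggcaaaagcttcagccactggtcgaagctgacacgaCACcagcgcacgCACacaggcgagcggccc
The last 3 come from the transcripts with the lowest GC content, between 36.9% and 39.6%, and all 3 have a KRAB pattern. Zfp938 is read from chr10:82225819-82225896 (minus strand, exon 4 of 4), Zfp932 from chr5:110008837-110008914 (plus strand, exon 4 of 4) and Zfp825 from chr13:74480952-74481029 (minus strand, exon 5 of 5).
Zfp938: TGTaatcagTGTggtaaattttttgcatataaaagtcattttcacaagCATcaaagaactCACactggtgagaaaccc
Zfp932: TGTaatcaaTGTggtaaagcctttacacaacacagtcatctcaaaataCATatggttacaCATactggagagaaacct
Zfp825: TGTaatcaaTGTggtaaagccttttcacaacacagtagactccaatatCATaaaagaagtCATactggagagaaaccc
The capital codons fall at the same places in all 9 stretches, while GC content ran from 34.6% in the Zfp938 stretch to 73.1% in the Zfp771 stretch.

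The libraries of controls 1 to 3 held 28048168, 34887274 and 47558065 estimated counts, and those of transgenic kidneys 1 to 3 held 28957065, 23500918 and 31708474. No Zfp gene had fewer than 229 counts in any library. Control 3 stood apart: on the first principal component, which held 53.5% of the variance, it lay at 23.7 and the other libraries between -10.8 and 1.03. All 9 kidney tubule markers were measured. Glomerular markers summed to 89.6 to 123 CPM (counts scaled to a common library total) in controls and to 140 to 171 CPM in transgenic kidneys, with 2 of 5 listed. Endothelial markers summed to 219 to 289 and 191 to 217 CPM (3 of 5 listed), macrophage and lymphocyte markers to 251 to 300 and 224 to 286 CPM (6 of 9), red cell genes to 562 to 965 and 527 to 791 CPM (4 of 6), fat genes to 87.7 to 255 and 106 to 155 CPM (2 of 5), and the 1 adrenal gene listed of 5 lay at 4.49 to 5.67 and 6.47 to 7.79 CPM. None of 5 muscle genes was listed. Cryab, the gene whose mutant form the transgene carries, was at 210, 223 and 292 CPM in controls and 186, 178 and 194 CPM in transgenic kidneys, lower in all 3 without passing the test (adjusted p of 0.997 in edgeR). The part of these differences in the Zfp values was not tested.

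Most Zfp genes were expressed at moderate levels. Their median was 28.2 CPM, against 53.2 CPM over the 7125 other genes fitted. Per kilobase of transcript the medians were 10.8 and 19.9 CPM. Only Zfp706 and Zfp106 exceeded 100 CPM, 66 genes lay between 10 and 100 CPM, and only Zfp386 lay below 10 CPM. The table's minimum level removes low genes from both sides of this comparison.

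Zfp706, the shortest protein, with a single finger and a described role in ending self-renewal of embryonic stem cells, had the highest level. It lay at 449, 416 and 442 CPM in controls and 446, 404 and 441 CPM in transgenic kidneys, a mean of 98.0 CPM per kilobase. The ranges of the groups overlapped, with transgenic 2 lowest and control 1 highest. Zfp207 (BuGZ), a spindle protein that binds microtubules and Bub3, followed at 51.7 CPM per kilobase, or 27.9 with its longest transcript as the length. It lay at 83.5, 72.9 and 96.6 CPM in controls and 80.0, 75.7 and 76.4 CPM in transgenic kidneys, where control kidneys held both extremes.

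The next in order did not differ from each other beyond their spread over kidneys: Zfp787 at 29.9, Zfp949 at 26.8 and Zfp598 at 26.5 CPM per kilobase. Zfp598 is the ubiquitin ligase that recognises collided ribosomes. Zfp771 (24.3), Zfp868 (22.2) and Zfp637 (20.7 CPM per kilobase) completed the highest 8. At the low end, Zfp386, a KRAB gene, was at 2.05 CPM per kilobase. Zfp641 (4.93), Zfp938 (5.20) and Zfp746 (5.27 CPM per kilobase) came next. Zfp746 encodes PARIS, a repressor of Ppargc1a that parkin marks for breakdown.

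**Figure D1:**
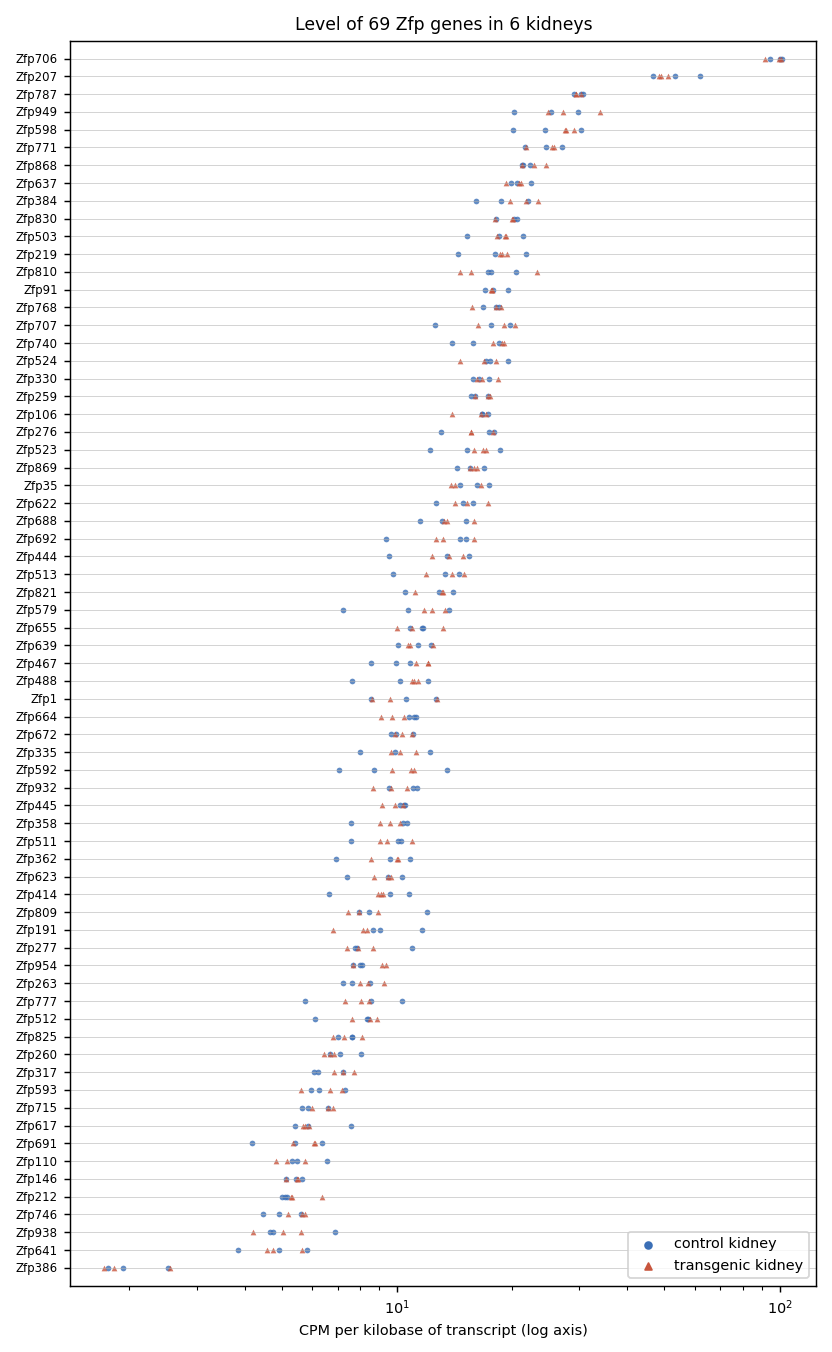
Level of the 69 Zfp genes in CPM per kilobase of transcript (log axis), 1 row per gene, with circles for the 3 control and triangles for the 3 transgenic kidneys. Zfp706 stands alone near 98.0 and Zfp386 alone near 2.05, and in most rows the circles and triangles interleave.

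Of the 44 Zfp genes listed for a described role, 21 were in the table under those symbols. Several of these act on RNA and ribosomes. Zfp106, an RNA-binding protein needed by motor neurons and muscle, had 154 ± 3.14 CPM in controls and 144 ± 15.1 CPM in transgenic kidneys (mean ± SD, n = 3 each, as for the values that follow). Zfp622 and Zfp593, both factors of large ribosomal subunit assembly, had 40.5 ± 4.62 and 43.6 ± 4.32 CPM, and 13.0 ± 1.43 and 13.0 ± 1.63 CPM. Zfp830, which acts in splicing and genome stability, had 31.3 ± 2.14 and 30.8 ± 1.87 CPM. In each of these genes the control and transgenic kidneys overlapped.

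Among regulators of transcription and signalling, Zfp91, a ubiquitin ligase of the alternative NF-κB pathway, had 100.2 ± 6.93 CPM in controls and 97.6 ± 0.366 CPM in transgenic kidneys. Zfp335, needed for neural progenitors and T cells, had 46.0 ± 9.60 and 47.5 ± 3.71 CPM. Zfp219, a partner of Sox9 in cartilage, had 54.5 ± 11.1 and 57.2 ± 1.19 CPM. The SD of Zfp335 and of Zfp219 was larger in the control kidneys, where control 3 was lowest and control 2 highest. Zfp503, a developmental repressor without DNA-binding fingers, had 77.4 ± 12.8 and 79.8 ± 2.60 CPM, with control 1 lowest. Zfp639 (24.9 ± 2.43 and 25.02 ± 2.21 CPM), the nucleolar protein gene Zfp330 (27.8 ± 1.37 and 28.6 ± 1.92 CPM) and Zfp637 (25.8 ± 1.59 and 25.1 ± 1.21 CPM) also overlapped between the groups.

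Zfp445, Zfp809 and Zfp110 are KRAB proteins of the same list. Zfp445, which protects imprints, lay at 65.0, 64.8 and 63.0 CPM in controls and 61.2, 56.6 and 64.4 CPM in transgenic kidneys. Zfp809, which silences retroviruses through Trim28 in stem cells, lay at 11.3, 17.1 and 12.1 CPM in controls and 11.3, 12.7 and 10.6 CPM in transgenic kidneys. Control 2 was the high sample in Zfp809, and its log2 fold change of -0.22 ± 0.179 (SE) became -0.02 without control 2. Zfp110, which binds the p75 neurotrophin receptor, had 20.8 ± 2.41 and 18.9 ± 1.62 CPM.

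The comparison of the groups asked whether the kidneys of mice with a heart muscle transgene differ before heart failure. No Zfp gene passed an adjusted p of 0.05 in edgeR's quasi-likelihood test, and the lowest adjusted p was 0.997. Over all 7194 genes fitted, 1 gene passed, which is 0.0139%. That gene was Ren1, which encodes renin. At an unadjusted p under 0.05 there were 2 Zfp genes, Zfp467 and Zfp191, and 1.82% of all genes. DESeq2 called 2 of all genes (0.0278%) and no Zfp gene, with 2 Zfp genes at an unadjusted p under 0.05 (2.27% of all genes). The log2 fold changes of the Zfp genes ran from -0.33 to 0.27, with a median SE of 0.129. Their median was 0.02 against 0.00 over the other genes, and 40 were higher and 29 lower (58.0% higher, against 50.2% of the other genes).

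**Figure D2:**
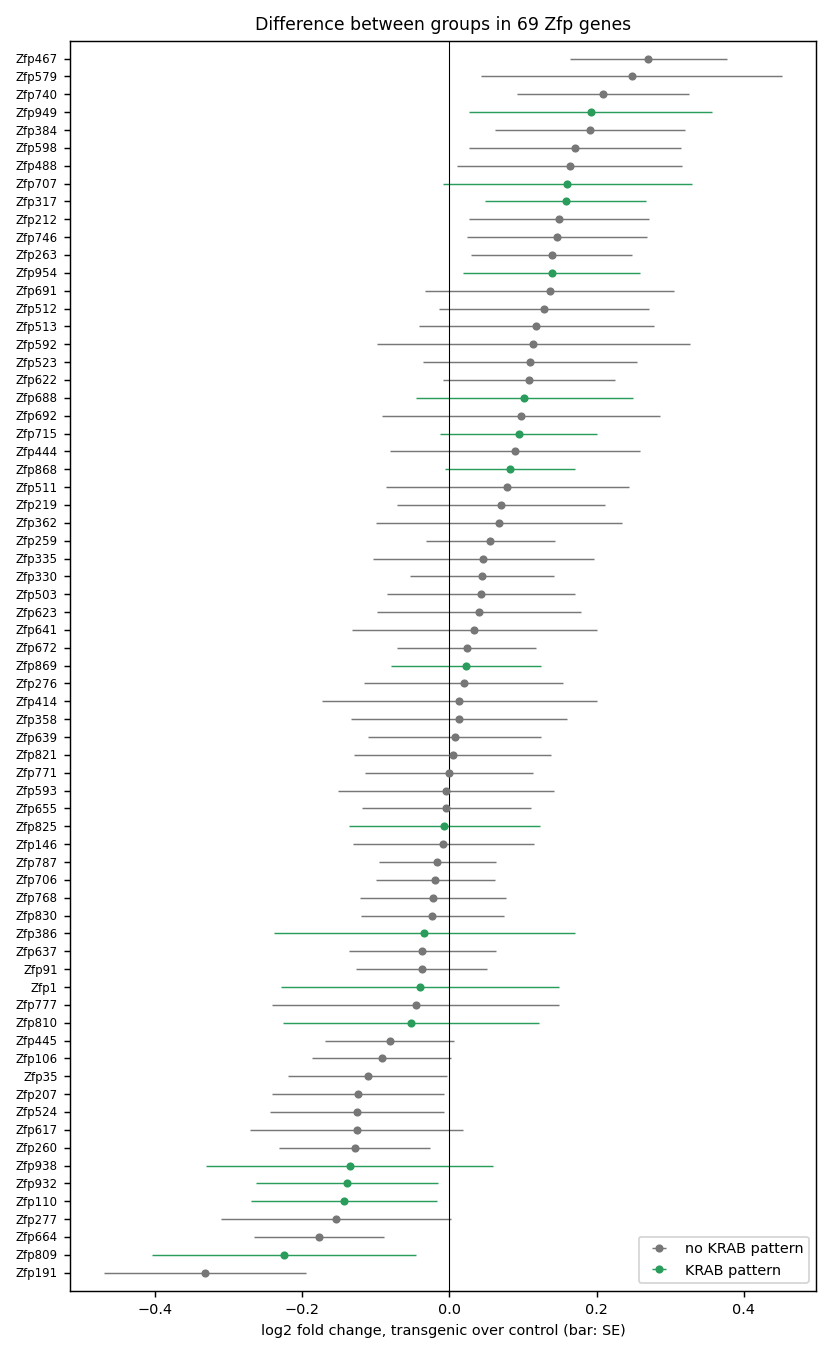
Log2 fold change of transgenic over control kidneys for each of the 69 Zfp genes, ordered by value, with bars of 1 SE and green points for the 16 genes with a KRAB pattern. Values run from -0.33 (Zfp191) to 0.27 (Zfp467), and green points are spread along the whole order.

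In 4 Zfp genes the 3 transgenic values lay all above or all below the 3 control values, 5.80% of the 69, and 5.98% of all genes did so. Of these, 2 were higher (2.96% of all genes) and 2 lower (3.02% of all genes). With 3 kidneys a group, an exact two-sided permutation test cannot go below p = 0.1.

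Zfp467, a regulator of the choice between bone-forming and fat cells, lay at 39.1, 36.1 and 30.9 CPM in controls and 43.6, 40.5 and 43.6 CPM in transgenic kidneys. Control 3 was lowest, and the gap between the groups lay between control 1 and transgenic 2. The log2 fold change was 0.27 ± 0.107 (SE), 1.21-fold, with an adjusted p of 0.997 in edgeR, and it lay between 0.17 and 0.35 over 18 alternatives. The gene is at chr6:48427692-48445992 on the minus strand and has 12 fingers, the one printed above among them.

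Zfp212 lay at 14.3, 14.5 and 14.1 CPM in controls and 14.8, 17.8 and 14.9 CPM in transgenic kidneys. Transgenic 2 was the high sample, and the fold change was 0.15 ± 0.122 on the log2 scale. Without transgenic 2 it was 0.06. Its kidneys no longer separated under the correction for GC content and length, and a stricter count minimum removed the gene. It is at chr6:47920568-47932639 on the plus strand.

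Zfp191, known for its need in myelination by oligodendrocytes, lay at 51.9, 49.6 and 66.8 CPM in controls and 46.7, 39.0 and 48.02 CPM in transgenic kidneys. Control 3 was the highest and transgenic 2 the lowest. The log2 fold change was -0.33 ± 0.137, with an adjusted p of 0.997 in edgeR, and it was -0.18 without control 3, over 1.5 times smaller. The groups still did not overlap then. Its transcript is at chr18:24009717-24020813 on the minus strand.

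Zfp664 had the narrowest control values of these 4 after Zfp212, at 45.4, 44.1 and 46.0 CPM, with 37.2, 39.7 and 42.8 CPM in transgenic kidneys. Its log2 fold change was -0.18 ± 0.088, between -0.23 and -0.13 over 18 alternatives, and its groups stayed apart in all 18. The gene is at chr5:124862705-124888630 on the plus strand.

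**Figure D3:**
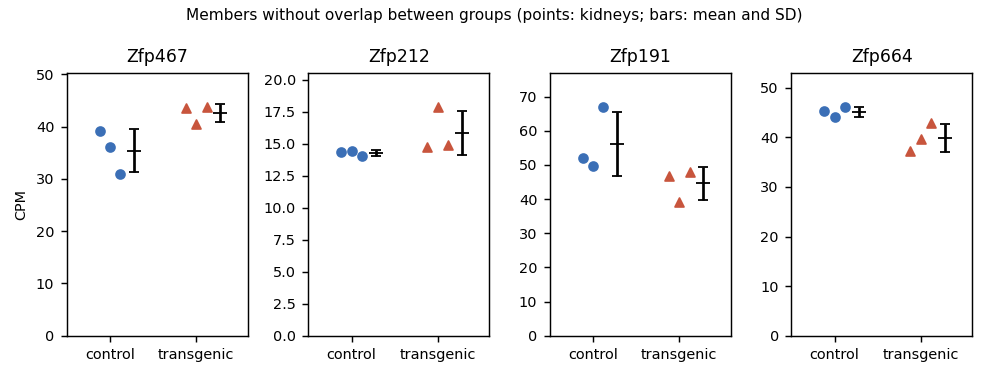
CPM of the 4 Zfp genes whose groups did not overlap, 1 panel per gene with its own axis from 0, points for single kidneys and bars for mean and SD. Zfp467 and Zfp212 are higher and Zfp191 and Zfp664 lower in the transgenic kidneys, and the gap in Zfp212 between 14.5 and 14.8 CPM is small.

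The Zfp genes next in order of p overlapped between the groups. Zfp740 lay at 61.4, 71.9 and 54.1 CPM in controls and 74.0, 73.3 and 69.3 CPM in transgenic kidneys, with a log2 fold change of 0.21 ± 0.117. Only control 2 reached into the transgenic range. Zfp384, a nuclear matrix protein studied in bone, lay at 57.5, 67.7 and 49.5 CPM in controls and 71.8, 66.7 and 60.8 CPM in transgenic kidneys. Its log2 fold change was 0.19 ± 0.129, 0.31 without control 2 and 0.09 without control 3.

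Other Zfp genes moved likewise when control 2 or control 3 was left out. Zfp598 lay at 81.6, 102 and 67.5 CPM in controls and 92.6, 97.2 and 92.1 CPM in transgenic kidneys. Its log2 fold change of 0.17 ± 0.144 was 0.34 without control 2 and 0.04 without control 3. Zfp579 lay at 26.6, 34.1 and 18.03 CPM in controls and 30.7, 33.3 and 29.3 CPM in transgenic kidneys, with 0.25 ± 0.204 over all 6 kidneys, 0.48 without control 2 and 0.03 without control 3. In both genes the transgenic kidneys all lay inside the control range.

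Leaving out control 2 raised the number of Zfp genes without overlap from 4 to 18, which is 26.1% of them, beside 24.6% of all genes. Without control 3 it was 10 of 69 (14.5%), beside 15.1% of all genes. Without transgenic 3 it was 12 (17.4% beside 16.3%), without transgenic 1 it was 7 (10.1% beside 10.1%), and without control 1 or transgenic 2 it was 6 (8.70% beside 12.3% and 13.9%). With fewer kidneys overlap is less likely for every gene, and each share lay near or below that of all genes. Zfp genes with an unadjusted p under 0.05 in edgeR numbered 9 without control 2, led by Zfp592. That is 13.0% of the Zfp genes, beside 8.30% of all genes. They numbered 0 without transgenic 1 (0.653% of all genes). With limma's array weights, which give control 3 the least weight, 5 Zfp genes had an unadjusted p under 0.05 (7.25%, beside 8.81% of all genes). None passed an adjusted p of 0.05 in any of these fits.

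Within groups, the SD of log2 CPM had a median of 0.165 over the Zfp genes and 0.136 over the other genes. Zfp592, a partner of Zmynd8 in a chromatin complex, varied most, at 0.342. It lay at 63.6, 98.4 and 51.5 CPM in controls and 79.3, 80.7 and 70.9 CPM in transgenic kidneys. Zfp579 (0.327), Zfp777 (0.305), Zfp692 (0.294), Zfp1 (0.277) and Zfp386 (0.275) followed. In Zfp592, Zfp579, Zfp777, Zfp692 and Zfp1 control 3 was the lowest of the 6 kidneys. Zfp787 varied least, at 0.034, with all 6 kidneys between 55.2 and 58.1 CPM.

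Control 3 was the lowest of the 6 kidneys in 32 Zfp genes (46.4%, against 32.5% of other genes) and the highest in 15 (21.7%, against 34.9%). Control 2 was the highest in 23 (33.3%, against 17.96%). Within the Zfp genes and within the other genes, these shares moved with the base composition of the transcripts. The median GC content was 50.3% in the Zfp genes and 51.9% in the other genes. What the difference in shares between Zfp and other genes rests on was not tested. Across the 69 genes, the deviation of control 3 from the mean of the 6 kidneys correlated with GC content at Pearson's r = -0.61. Across 6980 other genes r was -0.52. Both are descriptions across genes that share a library. Among the other 5 libraries r over the Zfp genes ran from 0.05 in transgenic 2 to 0.46 in transgenic 3.

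**Figure D4:**
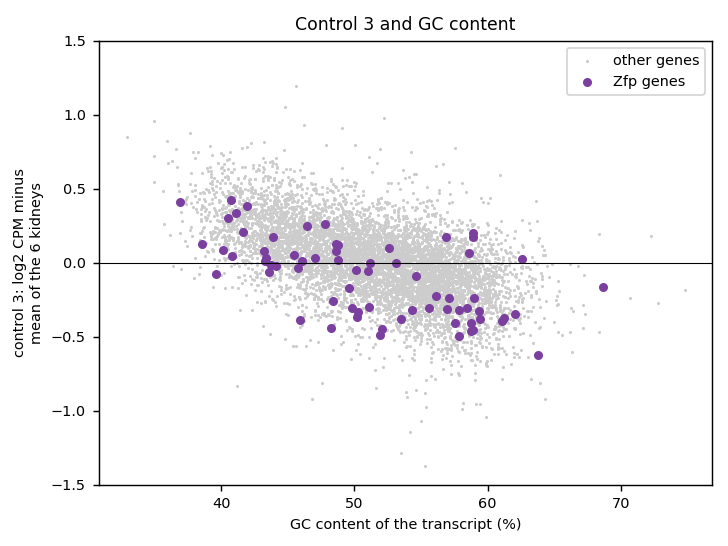
Deviation of control 3 from the mean of the 6 kidneys (log2 CPM) against GC content of the transcript, with Zfp genes in purple over the other genes in grey and 8 genes outside the plotted range of ±1.5. The purple points fall with GC content (r = -0.61) as the grey ones do (r = -0.52).

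The classes of GC content, whose limits of 45% and 55% were chosen after the values were seen, show the size of this. In the 24 Zfp genes over 55% GC, such as Zfp579, Zfp777 and Zfp219, control 3 was lowest in 19 (79.2%) and its median deviation was -0.32. Other genes over 55% GC had a median deviation of -0.14, and control 3 was lowest in 57.2% of them. In the 17 Zfp genes under 45% GC, such as Zfp938, Zfp386 and Zfp191, control 3 was lowest in 0 and highest in 6 (35.3%). Its median deviation there was 0.09. Other genes under 45% GC had 0.25, and control 3 was lowest in 4.47% and highest in 76.9% of them. In the 28 Zfp genes between, control 3 was lowest in 13 (46.4%), against 26.6% of the other genes between. The median deviations there were -0.05 and 0.03. The shares of Zfp and other genes thus also differed within these classes, and the reason was not tested.

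The group difference moved with these classes. The median log2 fold change was 0.06 in Zfp genes over 55% GC, of which 18 of 24 were higher, and -0.05 in those under 45%, of which 13 of 17 were lower. Other genes showed 0.04 and -0.11. Without control 3 the Zfp medians became -0.04 and 0.02, and both turned in sign. With the correction for GC content and length they were -0.01 and 0.04, and those of other genes -0.015 and -0.013. That correction is fitted to GC content over all genes, Zfp genes among them, so it reduces a difference between GC classes by design. Zfp191 and Zfp260, the latter a factor described in heart muscle cells, belong to the low class. Zfp467 belongs to the high class, and its difference without control 3 stayed above 0.

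**Figure D5:**
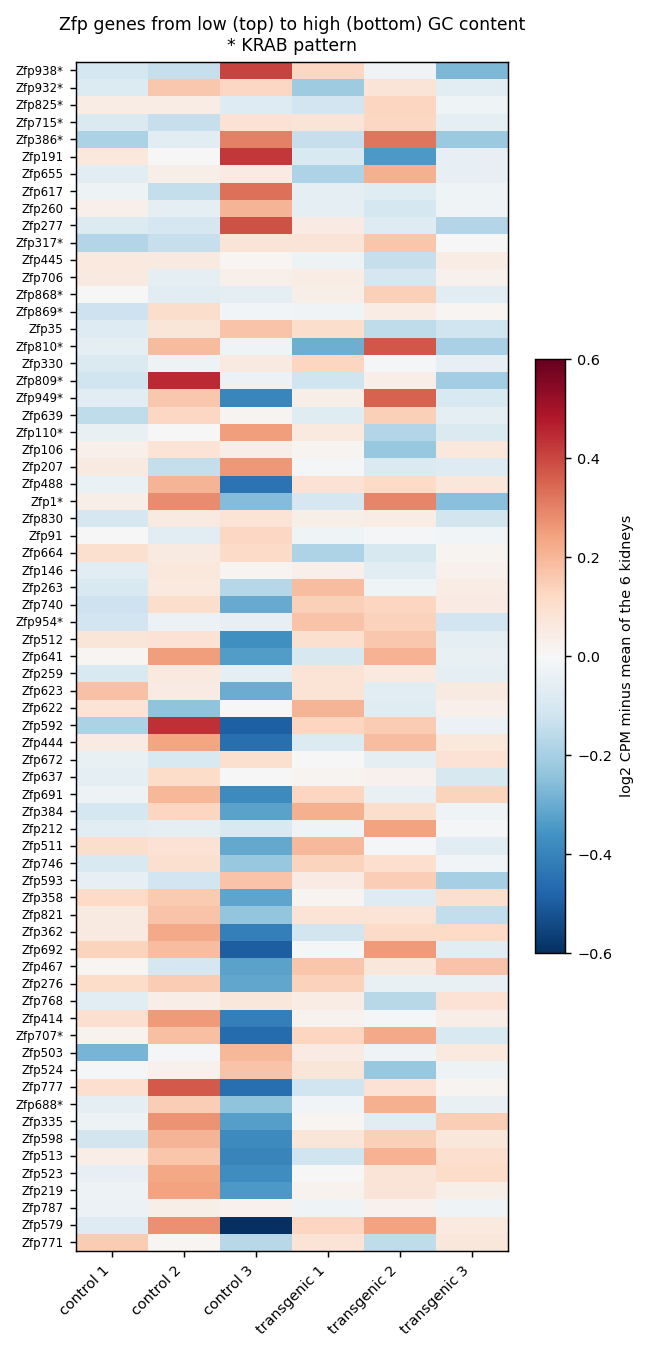
Deviation of each kidney from the mean of the 6 (log2 CPM, red above and blue below) for the 69 Zfp genes, in rows from low GC content at the top to high at the bottom, with an asterisk for a KRAB pattern. The column of control 3 turns from red at the top to blue in the lower part, and that of transgenic 2 is red in most rows with an asterisk.

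The 16 genes with a KRAB pattern differed from the rest of the Zfp genes in which kidney was highest. Transgenic 2 was the highest of the 6 kidneys in 10 of these 16 (62.5%) and in 6 of the other 53 (11.3%), and in 15.1% of the genes that are not Zfp. The class was picked out after these values were seen, so no test is given. The other 53 are not free of KRAB proteins, so the 11.3% is that of a mixed set. The pattern missed Zfp445, whose lowest kidney was transgenic 2. Where the kidneys lay in other missed KRAB genes was not examined. The 10 are Zfp1, Zfp317, Zfp386, Zfp688, Zfp707, Zfp715, Zfp810, Zfp825, Zfp868 and Zfp949. The 16 genes had a median level of 20.5 CPM, against 31.9 CPM in the other 53, and a median GC content of 43.9%, against 52.6%. Transgenic 2 was also the library with the fewest counts; the part of depth in this was not tested.

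Zfp810 shows the pattern at its largest, with 56.0, 66.3 and 57.1 CPM in controls and 47.3, 75.2 and 50.7 CPM in transgenic kidneys. Transgenic 2 stood above all others and the other 2 transgenic kidneys stood below all controls. Zfp949 had the highest level of the genes with a KRAB pattern. It lay at 87.9, 103 and 70.1 CPM in controls and 94.2, 118 and 86.3 CPM in transgenic kidneys. Its log2 fold change of 0.19 ± 0.165 was 0.05 without transgenic 2. Zfp1 lay at 19.2, 22.9 and 15.5 CPM in controls and 17.4, 23.1 and 15.6 CPM in transgenic kidneys. As a group the 16 genes with a KRAB pattern did not move one way: 8 were higher and 8 lower. Their log2 fold changes had a median of 0.01. It was -0.04 without transgenic 2 and 0.10 with the correction for GC content and length, which gave 0.03 over all 69.

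Zinc finger genes often lie side by side in the genome. Allowing gaps of up to 500 kb in GRCm38, 25 of the 69 lay in 11 groups: 9 pairs, 1 group of 3 and 1 group of 4. The group of 4 on chromosome 6 spans 525 kb with no other gene of the table between its members. Its log2 fold changes were 0.15 in Zfp212, -0.05 in Zfp777, 0.15 in Zfp746 and 0.27 in Zfp467. Both Zfp genes that were higher without overlap are in this group, while Zfp777 overlapped fully, at 26.6, 32.1 and 17.9 CPM in controls and 22.7, 26.3 and 25.04 CPM in transgenic kidneys. On chromosome 18, Zfp191 (-0.33) lies next to Zfp35 (-0.11 ± 0.108), at 44.4, 49.3 and 53.0 CPM in controls and 50.5, 42.2 and 43.2 CPM in transgenic kidneys. All members had 1 sign in 7 of the 11 groups, and the SEs exceed most of these values. Signs of neighbouring genes that are not Zfp were not counted, so no share stands beside the 7.

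The co-repressors through which KRAB proteins act were also measured. Of 34 genes listed, 18 were fitted. None passed an adjusted p of 0.05 in edgeR or an unadjusted p of 0.05, 11 were higher and 7 lower, and their median log2 fold change was 0.03, in a range from -0.19 to 0.22. Trim28 lay at 84.7, 93.2 and 71.7 CPM in controls and 94.4, 89.3 and 90.7 CPM in transgenic kidneys, 0.14 ± 0.112 on the log2 scale. Setdb1 lay at 44.5, 44.3 and 36.0 CPM in controls and 47.7, 53.1 and 43.3 CPM in transgenic kidneys, 0.21 ± 0.119. Control 3 was the lowest kidney in both, and the groups overlapped. Cbx3, a heterochromatin protein, was the one gene of the 18 without overlap (5.98% of all genes), at 63.6, 65.7 and 64.0 CPM in controls and 57.1, 62.0 and 62.5 CPM in transgenic kidneys.

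Partners of single Zfp proteins were measured as well. Of 20 listed, 14 were fitted, none passed an adjusted p of 0.05 in edgeR or an unadjusted p of 0.05, 7 were higher and 7 lower, and the median log2 fold change was -0.01. Gigyf2, a translational repressor that acts with Zfp598, was the one of the 14 without overlap (5.98% of all genes), at 64.2, 67.1 and 67.6 CPM in controls and 61.8, 52.1 and 64.1 CPM in transgenic kidneys, where transgenic 2 was lowest. Bub3, the partner of Zfp207, lay at 44.0, 38.2 and 36.6 CPM in controls and 46.2, 42.9 and 40.2 CPM in transgenic kidneys. Ppargc1a, the target of Zfp746, lay at 41.7, 38.6 and 48.1 CPM in controls and 33.6, 39.1 and 38.6 CPM in transgenic kidneys.

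Some of the values rest on reads that could come from elsewhere. More than 5% of the 50-base stretches of the transcript occurred in transcripts of other genes for 12 of the 69. The share was highest in Zfp932, at 55.5%, followed by Zfp524 at 46.0%, Zfp617 at 38.6% and Zfp825 at 28.7%. It was 16.8% in Zfp384, 15% in Zfp488 and 7.83% in Zfp706. Zfp868 and Zfp869, neighbours on chromosome 8, share stretches with each other. Exons of 10 overlapped another gene, among them Zfp335, which overlaps Pcif1 on the opposite strand over 1107 bases, and Zfp106, Zfp384 and Zfp219. Whether the counting used strand is not given in the sources used here, so the levels of these genes are uncertain. None of the 4 genes without overlap between groups is among either set.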

How the data were processed

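RNA of 3 kidney samples from transgenic mice and 3 from control mice was read on a HiSeq 2500 of Illumina, per the labels, from frozen pieces of whole kidneys. The build was mm10, per the submitters' processing notes. Aligner, counting program and strand setting: not given in the sources used here. A table with 24 per-sample columns was deposited by the authors, and 12 of them match no sample here and were not used. It keeps genes whose NRPKM lay between 5.0 and 84233.281 in 2 or more of 6 samples, per the file headers. The deposited raw columns hold estimated counts and the deposited normalized columns hold log2 values, the latter used only in 1 alternative.

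Estimated counts were rounded and fitted with edgeR 4.0.16 (R 4.3.3) by the quasi-likelihood test on group alone, with TMM scaling and filterByExpr, without 178 rows at 0 in control 3, of which 177 lie on X or Y, and 1 row was removed as low, which left 7194 genes. P-values are two-sided and were adjusted by Benjamini-Hochberg over all of them. CPM are scaled by TMM, and deviations use log2 CPM with a pseudocount of 0.5. No Zfp gene had under 229 counts in a library, and repeated reads are not independent molecules. Replicates are separate samples by label, with no word on whether each is another animal, so p-values measure only how these samples spread. The method was tested on simulated counts in 5 runs with 200 changed genes each. It recovered 97.8% of 2-fold and 60.6% of 1.5-fold changes at an adjusted p of 0.05 in edgeR. Changes as small as those of the Zfp genes (0.79-fold to 1.21-fold) were not simulated, so the runs do not show how many of these would be found. The simulated libraries also held no difference tied to GC content. Levels per kilobase, GC content and finger patterns use the GENCODE M21 transcript with the longest coding part. Positions are RefSeq's for GRCm38.p6. Of the rows, 7344 matched RefSeq and 7223 a transcript, all 69 Zfp genes included.

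The genes, the lists and the tests were chosen with earlier results of these data known. Genes are named where the groups did not overlap, where the level per kilobase was among the 8 highest or 4 lowest, where the SD within groups was among the 6 largest, or where a role was listed. Others named were chosen after their values were seen, for a neighbour, a partner, an order of p or a shown sequence. Alternatives were DESeq2 1.42.0 and its size factors, limma 3.58.1 with array weights, other filters, all rows kept, a robust prior, the authors' log2 values, a GC and length correction, a replicate block, 1 row per symbol, an adjusted p of 0.1 and each kidney left out.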

Additional observations from a re-analysis of the deposited data

How the results depend on the processing

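No Zfp gene and no KRAB co-repressor gene passed an adjusted p of 0.05 in any alternative run. The number of Zfp genes without overlap ranged from 6 to 18 with 1 kidney left out. The count of all genes called was 1 in the reported fit, 0 with all rows kept, 2 with DESeq2, 0 with the authors' log2 values and 0 to 2 with 1 kidney left out. The cause of these changes was not tested, and the fits with 1 kidney left out also rest on fewer kidneys. The median log2 fold change of the Zfp genes was 0.02 and ran from -0.01 without control 3 to 0.08 without control 2. Over the alternatives, 43 of the 69 Zfp genes changed sign at least once and 26 did not. Of the genes whose fold change is printed, Zfp777 (-0.05) ranged from -0.25 to 0.16 with 1 kidney left out, being 0.0096 without transgenic 1. Zfp592 (0.11) ranged from -0.075 without control 3 to 0.42. Zfp35 (-0.11) was 0.012 with limma's array weights. The lowest adjusted p of a Zfp gene over the alternatives was 0.472, with limma's array weights.

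Replicate numbers are shared between the groups. Same-numbered samples deviated together in 1 pair only (r = 0.00, 0.02 and 0.34), and not every sample correlated best with its own number. Such correlations, taken from deviations around means of 3 samples, cannot decide whether the numbers mark pairs. With the replicate block 0 Zfp genes and 1 gene in all were called and the Zfp median was 0.03, with 0.04, 0 and 1 when the GC and length correction was added. The lowest count of a Zfp gene in a library was 229, and with 3 kidneys a group no exact permutation test goes below p = 0.1.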

Other observations

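Zinc finger genes with other names were measured in the same kidneys, and none passed an adjusted p of 0.05 in edgeR. Of 6 Zkscan and Zscan genes, 5 were higher, with a median log2 fold change of 0.08. Zkscan3, a repressor of autophagy genes, was the one of the 6 without overlap (5.98% of all genes), at 47.95, 49.9 and 50.3 CPM in controls and 54.2, 57.5 and 55.2 CPM in transgenic kidneys. Of 7 Zbtb genes, 5 were higher, with a median of 0.04. Zbtb48, which binds telomeres, lay at 16.1, 17.9 and 11.1 CPM in controls and 17.6, 18.9 and 17.6 CPM in transgenic kidneys, and control 3 was lowest. Of 4 Klf genes, 3 were lower, with a median of -0.07. Klf15, abundant in kidney, lay at 99.4, 94.7 and 103 CPM in controls and 106, 80.9 and 112 CPM in transgenic kidneys. Sp5, the one Sp gene listed, differed by -0.07.

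The 3 RNA-binding genes left out of the Zfp set differed among themselves in where control 3 lay. Zfp36, which speeds the decay of inflammatory messages, lay at 29.1, 32.9 and 15.8 CPM in controls and 24.8, 28.8 and 36.3 CPM in transgenic kidneys. Zfp36l1 lay at 50.9, 43.0 and 62.8 CPM in controls and 52.6, 49.3 and 46.1 CPM in transgenic kidneys. Zfp36l2 lay at 57.8, 58.7 and 76.0 CPM in controls and 60.8, 61.0 and 58.6 CPM in transgenic kidneys. Control 3 was thus lowest in Zfp36 and highest in Zfp36l1 and Zfp36l2.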
